A study of Mus musculus with 111 samples.

Results

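The REV-ERB and ROR nuclear receptor genes were followed together with Thra, the thyroid hormone receptor alpha gene whose last exon lies opposite the last exon of Nr1d1. The members were chosen by name, with earlier results of these data known: Nr1d1, Nr1d2, Thra, Rora and Rorb, which are 5 of the 54087 gene rows in each table. Counts were RNA-seq reads of the tuberomammillary nucleus (TMN), the posterior hypothalamic region that holds the histamine neurons of the brain, from C57BL/6 mice (C57BL/6J in the study's methods, both sexes, 8 to 10 weeks old as supplied). Their age at collection is not given in the sources used here. Each mouse had received an adeno-associated virus (AAV) bilaterally into the TMN 21 days before collection, and every vector carried GFP behind an internal ribosome entry site so that the infused tissue could be found at dissection. GFP is the vector without a histone, H3.3 adds wild-type histone H3.3, and Q5A adds H3.3 with glutamine 5 replaced by alanine, which cannot take a monoamine at that residue. The promoter of the vectors is not given in the sources used here. Tissue was microdissected by its GFP light, per the study's methods, and the share of cells that carried virus was not measured here.

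Tissue was taken at zeitgeber times ZT0, ZT4, ZT8, ZT12, ZT16 and ZT20, where ZT0 is lights on and ZT12 is lights off. There were 32 GFP, 39 H3.3 and 39 Q5A libraries in 18 groups of virus and ZT, with 4 to 8 libraries each. GFP and H3.3 are the controls of the design, and pooled they gave 71 libraries, 9 to 14 at each ZT, against 6 or 7 Q5A libraries. The labels name 3 cohorts, of which cohort 1 held 28 of the GFP, 24 of the H3.3 and 26 of the Q5A libraries and cohort 3 held no GFP library. Reads in gene rows numbered 673306 to 3375352 per library (median 1474422.5).

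REV-ERB alpha (Nr1d1) and REV-ERB beta (Nr1d2) are repressors of the second loop of the circadian clock. CLOCK and BMAL1 drive their transcription, and they in turn bind response elements in Arntl, the gene of BMAL1, and other genes, where the activators ROR alpha (Rora) and ROR beta (Rorb) compete for the same sites. In many mouse tissues Nr1d1 RNA is known to be high in the light phase and low in the dark phase. Thra encodes a receptor that binds thyroid hormone and, by splicing to a different last exon, a variant that does not, and it is this last exon that runs into Nr1d1.

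In genome build GRCm38, Nr1d1 spans chr11:98767932-98775333 on the minus strand and Thra spans chr11:98740638-98769006 on the plus strand, so the genes point towards each other and meet tail to tail. Their exons share 263 bases, at chr11:98768157-98768419, which is 8.547% of the exonic length of Nr1d1 (3077 bases) and 5.7% of that of Thra (4614 bases). Of these, 197 bases, at chr11:98768223-98768419, are coding sequence in both genes. At the 263 shared bases a read can belong to either row only by its strand. The 200 bases at chr11:98768220-98768419, which are the 197 coding in both genes and the stop codon of Nr1d1, are printed on both strands. Capitals mark the stop codon of Nr1d1 on its own strand and the complement of that codon on the strand of Thra.
Nr1d1 strand (minus): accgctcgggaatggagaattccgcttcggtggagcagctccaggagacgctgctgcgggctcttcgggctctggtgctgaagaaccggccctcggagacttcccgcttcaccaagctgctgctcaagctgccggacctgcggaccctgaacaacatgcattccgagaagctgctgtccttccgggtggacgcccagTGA
Thra strand (plus): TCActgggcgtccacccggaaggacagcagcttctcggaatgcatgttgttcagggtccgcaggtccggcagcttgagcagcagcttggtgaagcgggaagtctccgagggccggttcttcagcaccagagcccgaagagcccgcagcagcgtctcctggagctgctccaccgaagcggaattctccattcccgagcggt

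The other members lie apart from this pair. Nr1d2 spans chr14:18204054-18239127 (minus strand) and Rorb spans chr19:18930605-19111196 (minus strand), and neither has an exon opposite another annotated gene. Rora spans chr9:68653786-69388246 (plus strand), with 82 exonic bases opposite Gm15511, a gene for which the tables hold no row of that name.

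**Figure D1:**
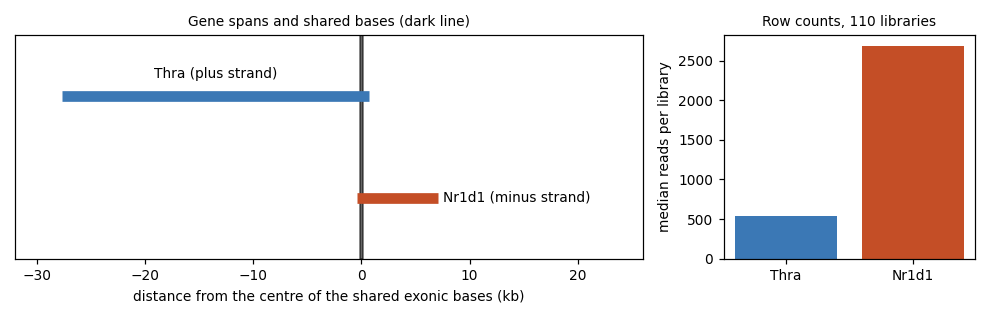
Left, spans of Thra and Nr1d1 by strand, as distance in kb from the centre of the shared exonic bases (dark line). Right, median reads per library in each row over 110 libraries, which were 543.5 for Thra and 2688.5 for Nr1d1.

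Counting used strand, so a read was credited to a row only when it lay on the strand of that gene. For the paired genes this decides which RNA a row stands for. Only 3.489% to 5.628% of uniquely placed reads fell into a gene row, and rows with an exon opposite another gene were 19.9% of the 28499 annotated rows but held 80% of their reads. If the sequenced read ran against the RNA, a row would leave out its own transcript and hold reads of the transcript on the other strand. The total of a row does not by itself give the RNA it came from, and the position of reads within a row was not analysed here. The values below are therefore given as values of the Nr1d1 row, the Thra row and so on, and which RNA gave rise to each row was not tested.

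The rows differed widely in abundance, and the overlapping pair held nearly all reads of the 5 members. The Nr1d1 row had 922 reads in the lowest library, 2688.5 at the median and 6231 in the highest, a median of 0.193% of all reads in gene rows, and ranked 40 by mean reads among all rows. The Thra row had 223 reads in the lowest library, 543.5 at the median and 1563 in the highest, or 0.0391% of gene-row reads, and ranked 441. Both were far above the other members in every library. The Nr1d2 row had 0 to 82 reads (median 11), the Rora row 0 to 85 (median 7) and the Rorb row 0 to 24 (median 3), with 1, 2 and 13 libraries at 0 reads.

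Per length, the order of levels was the same. The median level in CPM, which scales counts to the library total, per kb of exon was 625.8 for the Nr1d1 row (330.0 to 946.5 over libraries), 84.74 for the Thra row (52.22 to 165.3), 1.537 for the Nr1d2 row, 0.3767 for the Rora row and 0.2041 for the Rorb row. The Nr1d1 and Thra rows did not overlap across libraries on this scale. Rows of the same locus give a scale for the surroundings: of 15 annotated genes with an end within 100 kb of the pair, 13 have a row, and the highest after Thra was Psmd3, a proteasome subunit gene with exons opposite Gm12356, at a median of 48.5 reads and 7.222 CPM per kb.

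Marker rows of the labelled region were thin. Hdc, which encodes the histamine-making enzyme, had a median of 4 reads and none in 11 libraries, while Slc18a2, the vesicular monoamine transporter gene, had a median of 90 and Hrh3, the histamine H3 receptor gene, of 16. Pmch and Hcrt, which mark lateral hypothalamic neurons, had medians of 70.5 and 36 reads, and the myelin gene Mbp had 976.5. Tcf7l2 and Prkcd, which mark thalamic neurons, had medians of 24.5 and 3. In bulk tissue, fewer cells of a type and less RNA per cell cannot be told apart. A row that left out its own transcript would also be low, which was not tested. Earlier results of these data single out 4 libraries, all from cohort 1 (replicate 1 of H3.3 at ZT12 and replicate 3 of GFP at ZT12, of Q5A at ZT16 and of Q5A at ZT20), and a result that changed its call without them is given both ways.

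The question for the pair was which of the overlapping rows moved over the day. In controls both did, with the high in the light phase and the low late in the dark phase. The Nr1d1 row rose from 2059 ± 612.4 normalised counts at ZT20 (SD, n = 11) to 3129 ± 368.4 at ZT8 (SD, n = 13), a ratio of 1.52, and the Thra row rose from 458.8 ± 111.5 to 663.0 ± 112.4 at the same times, a ratio of 1.445. Normalised counts are counts divided by a median-of-ratios size factor for each library. JTK_CYCLE, a rank test against cosine-like templates with an exact null, called both rows with a 24 h period and a peak at ZT8.

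By ZT, the lowest, median and highest of the Nr1d1 row in controls were 2258, 2631 and 3017 normalised counts at ZT0, 2288, 3025 and 3618 at ZT4, and 2485, 3096 and 3673 at ZT8. In the dark phase they were 1764, 2855 and 3616 at ZT12, 1948, 2654 and 3728 at ZT16, and 1193, 2198 and 2988 at ZT20. Every pair of times overlapped, and the only libraries below the 1764 of ZT12 were at ZT20. They numbered 5, all from cohort 1. The Thra row had 402.9, 493.3 and 623.6 at ZT0, 436.3, 508.7 and 890.7 at ZT4, and 519.6, 630.8 and 879.8 at ZT8. At the later times it had 517.2, 600.0 and 795.2 at ZT12, 418.2, 500.1 and 1013 at ZT16, and 353.4, 442.5 and 764.6 at ZT20. At ZT8 and ZT12 every library was at or above 517.2, and the medians at the other times were each below that level.

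**Figure D2:**
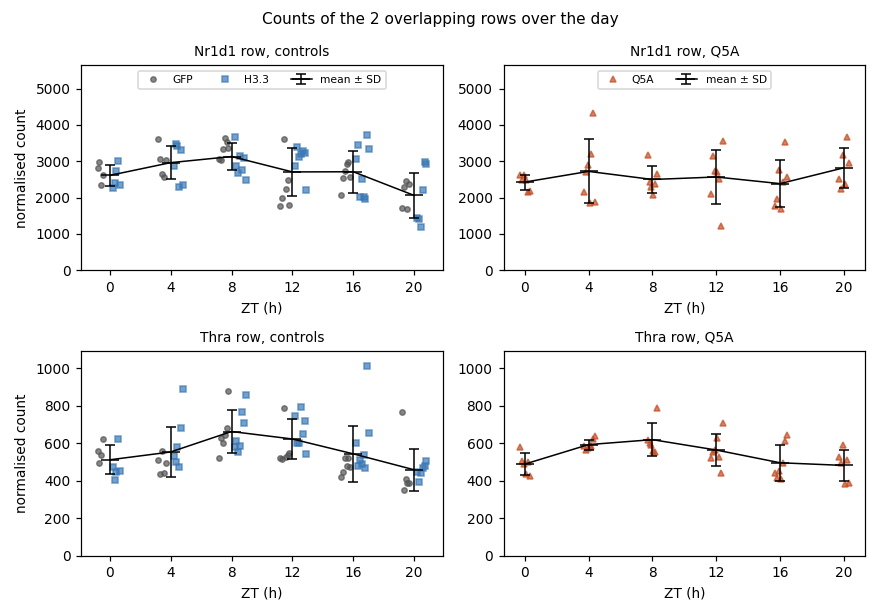
Normalised counts of the Nr1d1 row (top) and the Thra row (bottom) by ZT in hours, for controls (left; GFP circles, H3.3 squares) and Q5A (right; triangles), with 1 point per library and lines through the mean ± SD. In controls both rows were highest on average at ZT8 and lowest at ZT20, whereas in Q5A the Nr1d1 row ranged only from 2384 to 2820 between its lowest and highest means.

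JTK_CYCLE called 3 of the 5 members in controls at an adjusted p under 0.05, against 15.2% of all 16058 rows tested. The Thra row was called at an adjusted p of 9.66e-07, which ranked 15 of the rows tested, and the Nr1d1 row at 0.000425, which ranked 230. Both also passed a Benjamini-Hochberg q over all rows, with q of 0.00101 for Thra and 0.0293 for Nr1d1, as 2.39% of rows did. The Nr1d2 row was called at an adjusted p of 0.0193 (24 h, peak at ZT16) and did not pass the q (0.197). Rora (adjusted p = 0.426) and Rorb (adjusted p = 1) were not called. The call of Nr1d2 was lost within cohort 1 (0.0607) and without the cohort 1 libraries numbered replicate 1 (0.0881) or replicate 3 (0.283), whereas those of Nr1d1 (9.33e-06) and Thra (7.51e-05) were kept within cohort 1 and without any of its replicate numbers 1 to 5.

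A 24 h cosine curve gave the rows of the pair similar amplitudes. On the log2 scale the amplitude was 0.24 ± 0.05 (SE, n = 71) for the Nr1d1 row, a fitted peak-to-trough ratio of 1.393, and 0.25 ± 0.05 for the Thra row, a ratio of 1.413. The fitted peaks were at ZT 7.61 ± 0.86 h for Nr1d1 and ZT 9.17 ± 0.68 h for Thra, so that their intervals of 1 SE nearly meet. The edgeR quasi-likelihood test of the 24 h cosine and sine called 3 of the 5 members, beside 10.8% of 13264 rows: Rora (adjusted p = 0.00186), Thra (0.00353) and Nr1d1 (0.0156). DESeq2 called these and Nr1d2, 4 of 5 beside 11.4% of rows (Nr1d2 adjusted p = 0.0376, against 0.0542 in edgeR).

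The Nr1d1 call in pooled controls was lost without ZT20, and the share of all rows that edgeR called then fell from 10.8% to 2.05%. Without the ZT20 libraries, an alternative chosen after the data were seen, JTK_CYCLE was run on the members alone. In controls it still called the Thra row (adjusted p = 0.00092) and the Nr1d2 row (0.0074) but not the Nr1d1 row (0.239). In GFP alone it called Nr1d1 (0.0228, period 12 h), Thra (0.00154) and Nr1d2 (0.00437), and in H3.3 alone only Thra (0.0124). EdgeR then called none of the members in controls, with the lowest adjusted p at 0.0648 for Thra (n = 60). Several marker sums also differed at ZT20 in controls. The median sum of neuronal markers (Snap25, Syt1, Rbfox3) was 596.5 normalised counts there and 397.9 to 507.6 at the other times. It was 130.7 against 79.74 to 125.7 for Hdc, Slc18a2 and Hrh3, and 160.6 against 24.15 to 138.8 for Pmch and Hcrt. Oligodendrocyte, astrocyte, microglia, endothelium, arcuate and pituitary marker sums were not highest at ZT20. The thalamic sum of Tcf7l2 and Prkcd had a median of 62.79 at ZT20 (15.54 to 285.6) and medians of 25.2 to 31.79 at the other times. With that sum as a covariate, also chosen after the data were seen, edgeR kept the Thra row (adjusted p = 0.0017) and lost Nr1d1 (0.0736) and Rora (0.361), when the share of all rows called fell from 10.8% to 3.57%. The Nr1d1 row in edgeR also fell out without cohort 1 replicate 1 (adjusted p = 0.0868), replicate 3 (0.0907) or replicate 4 (0.0697). The part of thalamic tissue in these rhythms was not tested beyond these values.

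The control viruses taken apart gave the Thra row in both and the Nr1d1 row in 1. In GFP, JTK_CYCLE called Thra (adjusted p = 0.0104), Nr1d1 (0.012) and Nr1d2 (0.038), 3 of 5 members beside 12.3% of all rows. Each of these GFP calls was lost without some of the replicate numbers: that of Thra without cohort 1 replicate 2 (0.0623), 3 (0.108) or 5 (0.132), that of Nr1d1 without replicate 3 (0.0671), 4 (0.0568) or 5 (0.0623), and that of Nr1d2 without replicate 1 (0.194), 3 (0.214) or 5 (0.189) and within cohort 1 (0.0903). Without the 4 libraries that stand apart, Nr1d2 was at 0.0566 in GFP, which left 2 of 5 called. In H3.3 it called 1 of 5, Thra (adjusted p = 4.38e-05, ranked 7), beside 7.13% of rows, with Nr1d1 at 0.262. The means of the Nr1d1 row ran from 2101 ± 366.5 at ZT20 (SD, n = 5) to 3326 ± 241.1 at ZT8 (SD, n = 6) in GFP, with no overlap between those times, and from 2025 ± 799.6 at ZT20 (SD, n = 6) to 3041 ± 397.5 at ZT12 (SD, n = 7) in H3.3. The fitted amplitudes were 0.24 ± 0.07 in GFP and 0.27 ± 0.08 in H3.3 (log2, SE), and a difference in rhythm between the control viruses was not tested. Within cohort 1, Nr1d1 was called in GFP (adjusted p = 0.0102) and H3.3 (0.0142), and Thra in H3.3 (0.000278) but not in GFP (0.0706).

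To ask whether the rows moved apart, the log2 ratio of the Thra row to the Nr1d1 row was taken in each library. In controls it had a mean of −2.26 ± 0.35 (SD, n = 71), so that the Nr1d1 row held the larger count in every library, and its means by ZT ran from −2.43 ± 0.41 at ZT4 to −2.09 ± 0.23 at ZT12. The 24 h amplitude of the ratio was 0.10 ± 0.06 on the log2 scale (SE), which a permutation test of the ZT labels within virus did not separate from 0 (100000 resamples, p = 0.248). It passed within cohort 1 (amplitude 0.17, p = 0.043, n = 52) and with the thalamic markers regressed out (0.14, p = 0.0127, permutation test, chosen after the data were seen). These values do not show that the rows moved as one.

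Libraries of the same group also varied in both rows. As deviations from the mean of each group of virus and ZT, the log2 levels of the Nr1d1 and Thra rows had a Pearson r of 0.26 in controls (permutation p = 0.0295, adjusted over 12 relations 0.0657, n = 71) and a Spearman rho of 0.27 (p = 0.0244, adjusted 0.0731). In Q5A the Pearson r was 0.54 (permutation p = 0.00041, adjusted 0.00246, n = 39) and rho was 0.51 (p = 0.0012, adjusted 0.0072). The Q5A relation was 0.44 within cohort 1 (n = 26), 0.56 in cohorts 2 and 3 (n = 13) and 0.48 without the 2 libraries farthest from the median. In controls it fell to 0.17 within cohort 1, was 0.40 in cohorts 2 and 3, and was 0.20 without the extremes. The size factor of a library is shared by both rows of a point.

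In Q5A the Thra row moved over the day and the Nr1d1 row was not called. JTK_CYCLE called 1 of 5 members in Q5A, Thra (adjusted p = 0.00365, period 20 h, peak at ZT8, ranked 103), beside 4.41% of all rows, and at a q of 0.565 it did not pass adjustment over rows, which 0.00623% of rows did. Nr1d1 and Nr1d2 were at an adjusted p of 1, Rora at 0.197 and Rorb at 0.542. The lowest, median and highest of the Thra row were 424.1, 494.3 and 582.8 normalised counts at ZT0, 564.6, 584.4 and 638.6 at ZT4, 555.0, 598.3 and 789.8 at ZT8, 439.4, 555.5 and 708.2 at ZT12, 408.1, 454.5 and 645.9 at ZT16 and 382.9, 503.0 and 590.5 at ZT20. The 7 libraries at ZT4 lay in a narrow band, and ZT4 overlapped ZT0 and ZT20 only at their top.

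The Nr1d1 row in Q5A was spread widely at most times. It had 2167, 2477 and 2633 normalised counts at ZT0, 1862, 2704 and 4338 at ZT4, 2080, 2401 and 3160 at ZT8, 1230, 2692 and 3563 at ZT12, 1687, 2433 and 3521 at ZT16 and 2231, 2735 and 3672 at ZT20. All times overlapped, and the mean at ZT20 (2820 ± 547.6, SD, n = 6) was the highest of the day, where that of controls was the lowest. The fitted 24 h amplitude was 0.05 ± 0.08 (log2, SE) for the Nr1d1 row, against 0.20 ± 0.05 for the Thra row, whose fitted peak was ZT 7.54 ± 0.82 h.

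The edgeR test of the 24 h rhythm in Q5A called 0 of the 4 members tested, beside 0.248% of 11706 rows, with 1 at an unadjusted p under 0.05 (Thra, edgeR adjusted p = 0.116). DESeq2 also called 0, beside 0.725% of rows, with 1 at that p. Rorb was too low to be tested there. Within cohort 1 the Thra row passed (adjusted p = 0.029), when 8.38% of all rows did. Passing in controls and not in Q5A is not a difference between them, so the difference in rhythm was tested in 1 fit over all 110 libraries.

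No member passed the test of a rhythm difference between Q5A and controls (0 of 5 in edgeR, beside 0.122% of 13891 rows, and 0 of 5 in DESeq2, beside 0.018%). The edgeR adjusted p was 0.311 for Nr1d2, 0.334 for Rorb, 0.362 for Nr1d1, 0.478 for Rora and 0.683 for Thra. At an unadjusted p under 0.05 there were 2 members in edgeR (Nr1d2 and Rorb) and 3 in DESeq2 (with Nr1d1). For the Nr1d1 row the fitted difference had an amplitude of 0.23 on the log2 scale, close to the whole amplitude of controls, and for Thra it was 0.10. Without ZT20 the adjusted p of Nr1d1 was 0.982.

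The ratio of the Thra row to the Nr1d1 row had a 24 h rhythm in Q5A. It was lowest at ZT20 (−2.54 ± 0.31, SD, n = 6) and highest at ZT8 (−2.01 ± 0.21, SD, n = 6), with 6 libraries from −2.93 to −2.16 at the former time and 6 from −2.35 to −1.75 at the latter. The amplitude was 0.22 ± 0.07 on the log2 scale (SE) with a peak at ZT 8.41 ± 1.12 h (permutation test of the ZT labels, p = 0.0067, n = 39). It missed the threshold within cohort 1 (0.15, permutation p = 0.0609, n = 26) and passed without any of its replicate numbers 1 to 5 (p from 0.00544 to 0.0452). Between Q5A and controls the fitted curves of the ratio differed by an amplitude of 0.24, at p = 0.0516 in a permutation test of arm labels over 110 libraries that was added after the data were seen.

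**Figure D3:**
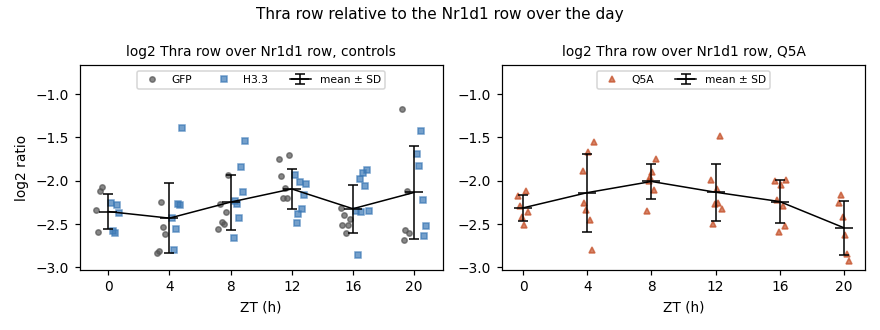
Log2 ratio of the Thra row to the Nr1d1 row by ZT in hours, for controls (left; GFP circles, H3.3 squares) and Q5A (right; triangles), with 1 point per library and lines through the mean ± SD. The means in Q5A ran from −2.54 at ZT20 to −2.01 at ZT8. Controls at ZT20 had a mean of −2.13 ± 0.53 and ran from −2.69 to −1.17, overlapping Q5A at that time. Control libraries with summed Tcf7l2 and Prkcd of 175.1 to 285.6 had the highest of these ratios, −1.83 to −1.17.

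Over the whole day no member passed a test of level between Q5A and controls. The log2 difference, Q5A minus controls with ZT as a factor, was −0.06 ± 0.07 for Nr1d1 (SE; 95% interval −0.20 to 0.07), −0.04 ± 0.05 for Thra (−0.14 to 0.07), 0.07 ± 0.13 for Nr1d2 (−0.19 to 0.33), 0.03 ± 0.18 for Rora (−0.32 to 0.37) and 0.27 ± 0.24 for Rorb (−0.21 to 0.74). EdgeR called 0 of 5, beside 0.0432% of all rows, and 0 had an unadjusted p under 0.05 in edgeR or DESeq2. The intervals limit a difference over the day most narrowly for the abundant pair and are widest for Rorb. H3.3 minus GFP also gave 0 of 5, beside 0% of rows, with 1 at an unadjusted p under 0.05 in either tool, the Thra row (log2 0.13 ± 0.06, edgeR adjusted p = 1).

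At single times, 0 of 30 contrasts of a member passed for Q5A against controls and 0 of 30 for H3.3 against GFP in edgeR, with 4 and 3 at an unadjusted p under 0.05 (the same counts in DESeq2, which also called none). Over all rows DESeq2 called at most 0.00407% in these contrasts, apart from 0.206% for Q5A at ZT20 and 11.3% for H3.3 at ZT12. At ZT20, where 0.252% of rows were called, the Nr1d1 row was at a log2 difference of 0.45 ± 0.16 in Q5A (edgeR adjusted p = 0.343), with 2231 to 3672 normalised counts in Q5A and 1193 to 2988 in controls. At ZT8 (0.0072% of rows called) the Nr1d1 row was at −0.33 ± 0.16 (edgeR adjusted p = 0.438) and the Nr1d2 row at 0.68 ± 0.31 (0.428). Between the control viruses, the Nr1d1 row at ZT12 was at 0.42 ± 0.18 in H3.3 over GFP (edgeR adjusted p = 0.105), at a time when 10.4% of all rows were called. It passed in edgeR without the 4 libraries that stand apart (adjusted p = 0.0306) and without cohort 1 replicate 3 (0.0334), and GFP ZT12 cohort 1 replicate 3 was the highest of its group, at 3616 normalised counts.

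Nr1d2, the REV-ERB beta gene, has no annotated exon opposite its own. Its promoter is the only one among the members with a window in RefSeq's promoter table (GRCm38.p6) to hold AGGTCA, the core motif that REV-ERB and ROR receptors bind. The motif was searched on both strands of the windows from 250 bases before to 50 after each start, and 16.3% of 32851 windows hold it. The 66 bases at chr14:18239148-18239213, minus strand, are printed to show it, with the motif in capitals.
Nr1d2 promoter: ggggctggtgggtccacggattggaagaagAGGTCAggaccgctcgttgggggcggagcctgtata
The E-box CACGTG, bound by CLOCK and BMAL1, is in 7.15% of windows and the D-box TTATGTAA, bound by DBP, TEF and HLF, in 0.938%, and neither is in a window of Nr1d1, Nr1d2, Rora or Rorb. Thra has no window there.

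In controls the Nr1d2 row was high in the dark phase, unlike the Nr1d1 row. It had 5.871, 8.472 and 15.86 normalised counts (lowest, median, highest) at ZT0, 3.299, 8.384 and 16.65 at ZT4, 1.872, 9.946 and 20.31 at ZT8, 5.638, 14.43 and 20.4 at ZT12, 0, 12.42 and 25.65 at ZT16 and 3.022, 13.92 and 24.46 at ZT20. All times overlapped, and the 3 highest medians were those of the dark phase. Its cosine amplitude was 0.29 ± 0.12 (log2, SE) with a peak at ZT 15.89 ± 1.67 h, about 8 h later than that of the Nr1d1 row. In GFP alone the amplitude was 0.51 ± 0.13 with means from 7.082 ± 1.067 at ZT0 (SD, n = 4) to 17.39 ± 2.502 at ZT12 (SD, n = 6), which did not overlap, and its call was lost when any of 13 of the 32 libraries was left out. In H3.3 alone the amplitude was 0.25 ± 0.20 with a fitted peak at ZT 19.2 ± 3.1 h, and the row was not called (JTK_CYCLE adjusted p = 1). In Q5A the means ran from 9.097 ± 2.477 at ZT0 (SD, n = 6) to 15.38 ± 5.293 at ZT8 (SD, n = 6), with an amplitude of 0.18 ± 0.16. A median of 11 reads per library limits how finely this row can be read.

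**Figure D4:**
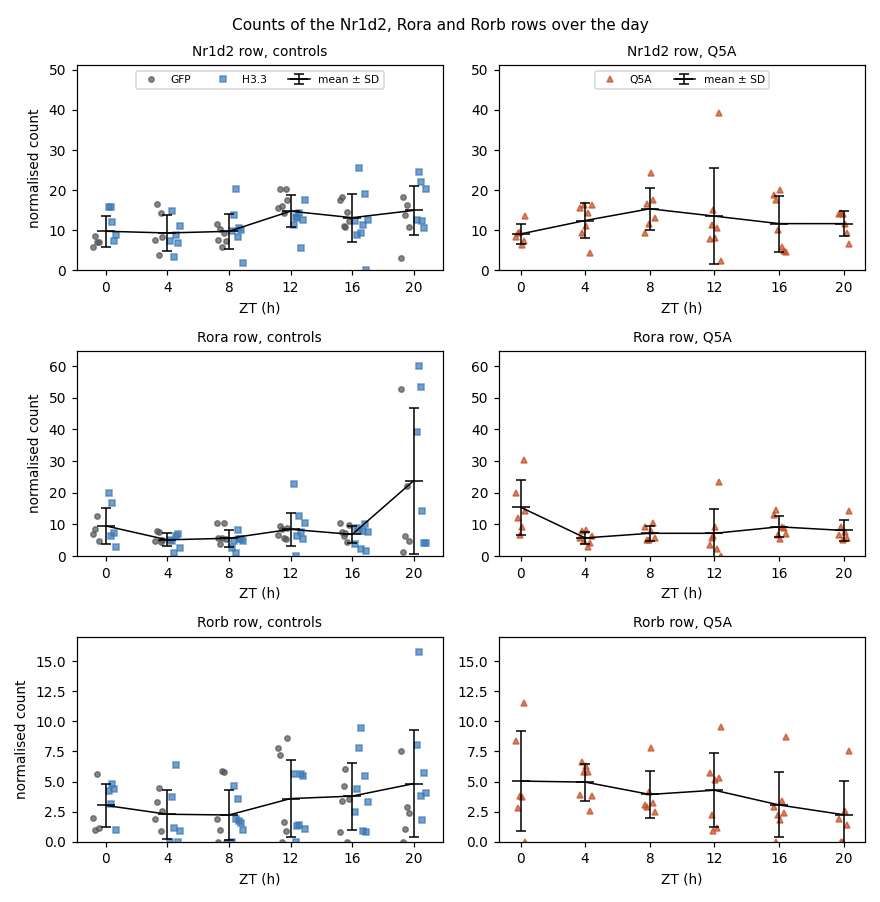
Normalised counts of the Nr1d2, Rora and Rorb rows (top to bottom) by ZT in hours, for controls (left; GFP circles, H3.3 squares) and Q5A (right; triangles), with 1 point per library and lines through the mean ± SD. The Rora row in controls at ZT20 was spread from 1.214 to 59.97, wider than at any other time.

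Rora, the activator gene that opposes the REV-ERBs, was called by edgeR in controls and not by JTK_CYCLE, and its values were most spread at ZT20. The row had means of 5.139 ± 2.021 normalised counts at ZT4 (SD, n = 11) to 9.539 ± 5.72 at ZT0 (SD, n = 9) outside ZT20, and 23.84 ± 23.04 at ZT20 (SD, n = 11). The 11 values at ZT20 were 1.214, 4.048, 4.09, 4.829, 6.427, 14.15, 22.12, 39.16, 52.89, 53.35 and 59.97. All 4 libraries above 30 were from cohort 1, of which 3 were H3.3 and 1 was GFP.

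Thalamic markers moved with the Rora row. In those 4 libraries the summed level of Tcf7l2 and Prkcd was 175.1, 285.6, 259.2 and 194.9 normalised counts, in the order of their Rora values, and in the other 7 it was 15.54 to 67.33. Across controls, as deviations from group means, the sum and the Rora row had a Pearson r of 0.62 (permutation p = 1e-05, the smallest the resamples can give, adjusted 0.00012, n = 71) and a Spearman rho of 0.41 (p = 0.00044, adjusted 0.00528). The r was 0.68 within cohort 1 (n = 52), 0.42 in cohorts 2 and 3 (permutation p = 0.0747, n = 19) and 0.52 without the 2 extreme libraries. In Q5A it was 0.19 (permutation p = 0.241, n = 39). Against the other members in controls, r was 0.39 for Thra (adjusted permutation p = 0.0042), −0.28 for Nr1d1 (0.0575), −0.19 for Nr1d2 (0.17) and 0.25 for Rorb (0.0657).

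**Figure D5:**
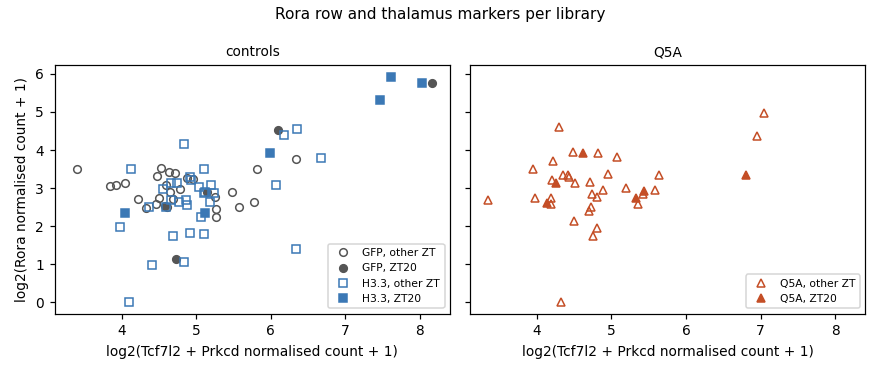
Log2(normalised count + 1) of the Rora row against log2 of the summed Tcf7l2 and Prkcd normalised counts + 1, for controls (left) and Q5A (right), with 1 point per library and ZT20 libraries filled. The 4 control libraries with the highest Rora values, from 39.16 to 59.97 normalised counts, all lie at the right, with marker sums from 175.1 to 285.6.

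At ZT20 the Rora row was at a log2 difference of −1.44 ± 0.43 in Q5A from controls (edgeR adjusted p = 0.165). The 6 Q5A libraries had 5.124 to 14.18 normalised counts, within the range of controls, and marker sums of 16.65 to 110.7. It passed within cohort 1 (adjusted p = 0.0266), when 1.65% of all rows did, and with the marker sum as a covariate the adjusted p was 0.966. The part of thalamic tissue in this difference was not tested further.

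The row of Rorb, which encodes ROR beta, was at the limit of detection. Its control means ran from 2.219 ± 2.086 normalised counts at ZT8 (SD, n = 13) to 4.825 ± 4.436 at ZT20 (SD, n = 11), and its Q5A means from 2.241 ± 2.803 at ZT20 (SD, n = 6) to 5.036 ± 4.175 at ZT0 (SD, n = 6). The SD was near the mean in these groups, and with all cohorts JTK_CYCLE called it for no virus and edgeR not in controls. Within cohort 1 of Q5A, JTK_CYCLE called Rorb (adjusted p = 0.0043) and Nr1d2 (0.0292) beside Thra. There it was run on the members alone, so no share of all rows stands beside these calls.

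Other rows of the locus were read beside the pair. Of the 8 rows within 100 kb that JTK_CYCLE tested, Nr1d1 and Thra included, 3 were called in controls, beside 15.2% of all rows. They were the pair, chosen beforehand, and Psmd3 (adjusted p = 0.000703, peak at ZT16, Q5A 0.738). Outside the pair, 1 call is too few to set apart from that share. In Q5A only Thra was called, beside 4.41% of all rows. Med24, Msl1, Casc3, Rapgefl1 and Wipf2 were not called in controls or in Q5A. The rest had medians of 0 to 0.5 reads.

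Likeness was read from mean log2 levels over the 18 groups of virus and ZT, among 6509 rows with a mean of at least 20 reads. The rows most like Nr1d1 were Gtpbp6 (Pearson r = 0.93), Mrpl24 (0.93) and Fancl (0.91), and the Thra row ranked 1041 at 0.62. Those most like Thra were RP23-132N23.22 (0.88), H2-T22 (0.87) and Zbtb11 (0.84), with Nr1d1 ranked 250. For Nr1d2 they included Tomm70a (0.87) and Chn1 (0.86), and its r with Nr1d1 was −0.56. Gtpbp6, Mrpl24, Fancl, H2-T22, Zbtb11, Tomm70a and Chn1 each have an exon opposite another gene, a share not counted over the 6509 rows. These are descriptions over 18 points that share libraries and depth.

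The genes through which the receptors act were counted as lists, to be read beside the 15.2% of all rows that JTK_CYCLE called in controls and the 4.41% in Q5A. Of 6 REV-ERB corepressor genes, 1 was called by JTK_CYCLE in controls, Ncor1 (adjusted p = 0.0153), which had 510 ± 143 normalised counts at ZT16 (SD, n = 14) and 811 ± 355 at ZT20 (SD, n = 11), and none was called in Q5A. A count of 1 in 6 is near the share of all rows. Of 6 clock genes under ROR response elements, 5 were tested: Clock (adjusted p = 0.000106, 16 h) and Cry1 (0.0283, 24 h), both core clock genes, were called in controls, and Npas2, a paralogue of Clock, in Q5A (0.0149). Arntl, a direct target of REV-ERB alpha, had a median of 6.5 reads and an adjusted p of 1 in controls and 0.515 in Q5A.

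Genes under E-boxes, which share their activators with Nr1d1, had 4 of 9 called in controls and 1 of 9 in Q5A, where 15.2% and 4.41% of all rows were. Dbp, a transcription factor gene of clock output, was called in both (adjusted p = 0.000247 and 0.00223), from 23.3 ± 6.33 normalised counts at ZT0 (SD, n = 9) to 38.2 ± 7.05 at ZT12 (SD, n = 13) in controls and from 26.9 ± 3.95 at ZT0 (SD, n = 6) to 43.7 ± 7.25 at ZT12 (SD, n = 7) in Q5A. Per1, a repressor of the clock's core loop (0.000223), and Hlf (0.00833) and Tef (0.0254), relatives of Dbp, were called in controls and not in Q5A, and edgeR called a rhythm difference for none of them. Hlf in controls ran from 7.7 ± 3.92 normalised counts at ZT8 (SD, n = 13) to 22.9 ± 17.2 at ZT20 (SD, n = 11). That was also the time at which the Rora row was most spread. Of 10 genes of thyroid hormone action, to which Thra belongs by function, 9 were tested: Rxrb, a retinoid X receptor gene, was called in controls (0.0187) and Hr, a corepressor gene, in Q5A (0.0119), so that 1 of 9 was called in each, too few to set apart from the shares of all rows. Thrb, the other thyroid hormone receptor gene, had a median of 8 reads and was called in neither. In the order of the lists above, edgeR tested 6, 4, 9 and 8 genes in controls and 5, 2, 9 and 6 in Q5A. The 24 h rhythm passed in controls for Cry1, Per1, Dbp, Hlf and Rxrg, beside 10.8% of all rows. It passed for no listed gene in Q5A, beside 0.248% of all rows, so that the lack of calls there does not set these genes apart. No listed gene passed a test of rhythm difference (0.122% of all rows did) or of level over the day (0.0432% for Q5A against controls, 0% for H3.3 against GFP).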

How the data were processed

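Polyadenylated RNA of TMN tissue, microdissected under GFP light per the study's methods, was made into libraries with a stranded Illumina ligation kit. Per the labels and the study's methods, the authors aligned reads with STAR 2.7.11b to GRCm38 and counted them over the exons of each gene name with HTSeq 2.0.5 (Ensembl release 93, union mode, stranded, alignment quality of at least 10), and the deposited values are raw counts. Entries naming no gene were left out of totals and tests, and 18 files mapped to no sample were not used here. Of 111 libraries, 2 (Q5A ZT4, cohort 2, replicates 2 and 3) differed in only 3 rows, below sampling noise, and were merged into 1 sample. Positions and the shared bases came from the GRCm38 annotation and transcripts of GENCODE.

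JTK_CYCLE was reimplemented in Python 3.11.15 (numpy 2.4.6, scipy 1.17.1) with periods of 8, 12, 16, 20 and 24 h on normalised counts of rows averaging at least 2 reads. Its p is exact and is adjusted over 20 templates of a row, and the Benjamini-Hochberg q is over rows. Rhythms and levels were also tested with edgeR 4.0.16 (TMM, filterByExpr with a minimum count of 10 and total of 15, quasi-likelihood F test, Benjamini-Hochberg over all rows, adjusted p under 0.05), and with DESeq2 1.42.0 as an alternative. Ratios and cosine curves used log2(normalised count + 1), so that changes of low rows are understated, and permutation tests were 2-sided or of an amplitude. Procedures were tested on simulated data. Alternatives were other scalings, filters and models of time, cohort 1 alone, cohort or replicate number as a term, and left-out replicates and libraries. All members and the locus, pathway and likeness rows fixed for naming are given, except for some listed genes that are not reported here. Members and lists were chosen with earlier results of these data known. Replicates are separate mice per the study's methods. Replicate numbers were not taken as pairs in the main tests. Of 91 same-numbered pairs, 36 had deviations correlated above 0.1 (median r 0.035, from −0.404 to 0.709). Of 585 other pairs at the same ZT, 158 did (median r −0.018, from −0.607 to 0.583). Whether same-numbered libraries share a batch was not tested.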

Additional observations from a re-analysis of the deposited data

Results flagged for a closer look

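In groups of 4 to 8 libraries, 10 of 108 tested sets of values had a library far from the others of its group by Dixon's criterion, where chance gives about 1 in 20, or 5.4. The Thra row held 4 of them: GFP ZT12 cohort 1 replicate 3 at 789.9 normalised counts (others 517.2 to 550.6), GFP ZT20 cohort 1 replicate 1 at 764.6 (others 353.4 to 411.3), H3.3 ZT16 cohort 3 replicate 1 at 1013.0 (others 467.9 to 656.1) and Q5A ZT8 cohort 2 replicate 1 at 789.8 (others 555.0 to 619.4). All 4 were high, and GFP ZT20 cohort 1 replicate 1 was also the library with the highest summed thalamic markers, at 285.6. The Nr1d1 row held none.

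Q5A ZT12 cohort 2 replicate 1 stood apart in both the Nr1d2 row, at 39.34 normalised counts (others 2.385 to 15.05), and the Rora row, at 23.51 (others 0 to 9.225). The Rorb row had Q5A ZT16 cohort 3 replicate 1 at 8.678 (others 0 to 3.355), Q5A ZT20 cohort 2 replicate 2 at 7.564 (others 0 to 2.578) and Q5A ZT8 cohort 1 replicate 4 at 7.8 (others 2.455 to 4.164), each a matter of a few reads. The log2 ratio of the Thra row to the Nr1d1 row was −1.396 in H3.3 ZT4 cohort 3 replicate 1 (others −2.793 to −2.27).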

How the results depend on the processing

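Over 762 comparisons of a value with an alternative, 705 were labelled the same. For a test this meant the same side of the threshold, without a reversed direction. For a count of members it allowed a small change. The 3 members called by JTK_CYCLE in controls were 2 with the q over rows and within cohort 1, both labelled the same. With a Benjamini-Hochberg q over rows, JTK_CYCLE called 0 members for each of Q5A, GFP and H3.3, against 1, 3 and 1. Of all rows, 0.00623%, 0.311% and 0.00623% passed that q. Within cohort 1 JTK_CYCLE called 3 for Q5A, 1 for GFP and 3 for H3.3. For cohort 1 and for left-out replicates it was run on the members alone, so no share of all rows stands beside those counts. Within that cohort edgeR called 1 member rhythmic in Q5A against 0, beside 8.38% of rows. Also there, 1 contrast at single times passed for Q5A against controls (Rora at ZT20, beside 1.65% of rows) and 1 for H3.3 against GFP (Rora at ZT20, beside 9.68%). The ratio of the Thra to the Nr1d1 row then reached p = 0.043 in controls and 0.0609 in Q5A (permutation tests). The 24 h rhythm in controls by edgeR, 3 members, became 1 with the thalamic markers as a covariate and 0 without ZT20, and regressing the markers out of the control ratio gave permutation p = 0.0127. Without the 4 libraries that stand apart, 1 single-time contrast of H3.3 against GFP passed (Nr1d1 at ZT12). Leaving out replicate numbers of cohort 1 gave 0 to 2 members in GFP by JTK_CYCLE and 0 to 1 single-time contrasts of H3.3 against GFP. The cause of these shifts was not tested.

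With a replicate block of cohort and replicate number, edgeR called 4 members in controls (Nr1d2 added, adjusted p = 0.0431), beside 16.4% of rows. It called 0 in Q5A, beside 0.094%, and 0 for the rhythm difference, beside 0.036%. In each comparison of levels it called 0, where 18.2% of rows passed for H3.3 against GFP at ZT12 and at most 0.187% elsewhere. With that block the ratio gave permutation p = 0.256 in controls and 0.014 in Q5A. Of 101 libraries with a partner, 27 correlated best with their own number, and the labels do not say what a shared number stands for. A median of 11, 7 and 3 reads limits what can be read from Nr1d2, Rora and Rorb.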

Other observations

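In controls at ZT20 the Nr1d1 and Rora rows stood at opposite ends in the same libraries. The 4 libraries with the highest Rora values, at 39.16 to 59.97 normalised counts, had 1193 to 1718 in the Nr1d1 row, and the only other control library of any time below 1764 was GFP ZT20 cohort 1 replicate 4, at 1692, with a Rora value of 22.12 and a thalamic marker sum of 67.33. The remaining 6 control libraries at ZT20 had 1.214 to 14.15 in the Rora row and 2198 to 2988 in the Nr1d1 row. This pattern was noticed in the data and was not tested.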
